A study of Mus musculus with 2 samples.

Results

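This account covers 33 genes of the postsynaptic density and of the kinase signalling behind synaptic plasticity, out of 34797 gene names on the array, in the hippocampus of sham and 5/6Nx mice. The list of genes was drawn up with earlier results of these data known, and its members were then found by symbol: a non-control spot belonged to the set when its gene name in the scanner files equalled one of the 33. Both groups were ICR mice, an outbred strain, sampled 8 weeks after a sham operation or after 5/6Nx, read here as 5/6 nephrectomy, which removes most of the kidney tissue to model chronic kidney disease. Each group is 1 array of total RNA labelled with Cy3, and the labels give neither the sex, the age nor the number of the animals behind it. Both arrays lay on 1 slide read in 1 scan. With 1 array a group no test is possible, every difference describes these arrays only, and size is the only criterion.

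The postsynaptic density is a protein meshwork under the membrane of excitatory synapses. Scaffolds of the DLG family hold glutamate receptors and neuroligins in place, SAPAP proteins (Dlgap genes) link them to SHANK, and SHANK binds HOMER and the actin cytoskeleton. Calcium that enters through NMDA receptors binds calmodulin and activates CaMKII, calcineurin and, through further kinases, the transcription factor CREB, the route by which hippocampal synapses are known to strengthen or weaken.

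The 33 genes were all measured, meaning that the probe representing each was well above background on both arrays. Between them they had 71 probes, of which 70 were measured. A probe is a 60-base oligonucleotide, and the gene is represented by its brightest one. In what follows a signal is the processed intensity in scanner units, and a difference is the log2 signal in 5/6Nx minus that in sham, once the spots of each array had been divided by their 75th percentile, 1452 in sham and 1263 in 5/6Nx. Equal raw signals therefore give a positive difference. Signals of different probes are not read as relative amounts of RNA, since probes bind with different strength. Brightness is used to choose the representing probe and to set brighter genes and probes apart from dimmer ones.

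As a group the genes lay close to the middle of the array. Their median difference was 0.05 (SD 0.36, 33 genes), and that of all 25944 genes measured was 0.05 (SD 0.60). None of the 33 reached 2-fold. The share was 8.19% of all measured genes and 4.84% of those above the median signal. At 1.5-fold, 4 of the 33 were apart, with Dlgap1 and Cnksr2 higher and Camk2d and Creb1 lower in 5/6Nx. The share was 22.6% of all measured genes (13.7% higher and 8.92% lower) and 15.9% of those above the median signal. With the mean over probes, Camk2d alone of these 4 stayed 1.5-fold apart, and Camk2b, Shank2 and Homer3 joined it. Scaling both arrays to their median or to the spike-in controls shifted the median of all genes to -0.11 and -0.16 and that of the 33 to -0.11 and -0.17. Both gave 1 gene higher (Dlgap1) and 4 lower (Camk2d, Creb1, Homer2 and Lrrtm2) at 1.5-fold, with Camk2d at -1.07 and -1.13 past 2-fold, so a small difference has no settled sign. In 27 of the 33 (81.8%) the difference was smaller than 0.5, and this held for 71.6% of all genes measured and for 78.9% of those above the median signal. The set was bright, with 31 of the 33 above the median signal and 23 in the top 25%, which is why the share among brighter genes is given beside the share of all. The share within the top 25% was not computed.

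**Figure D1:**
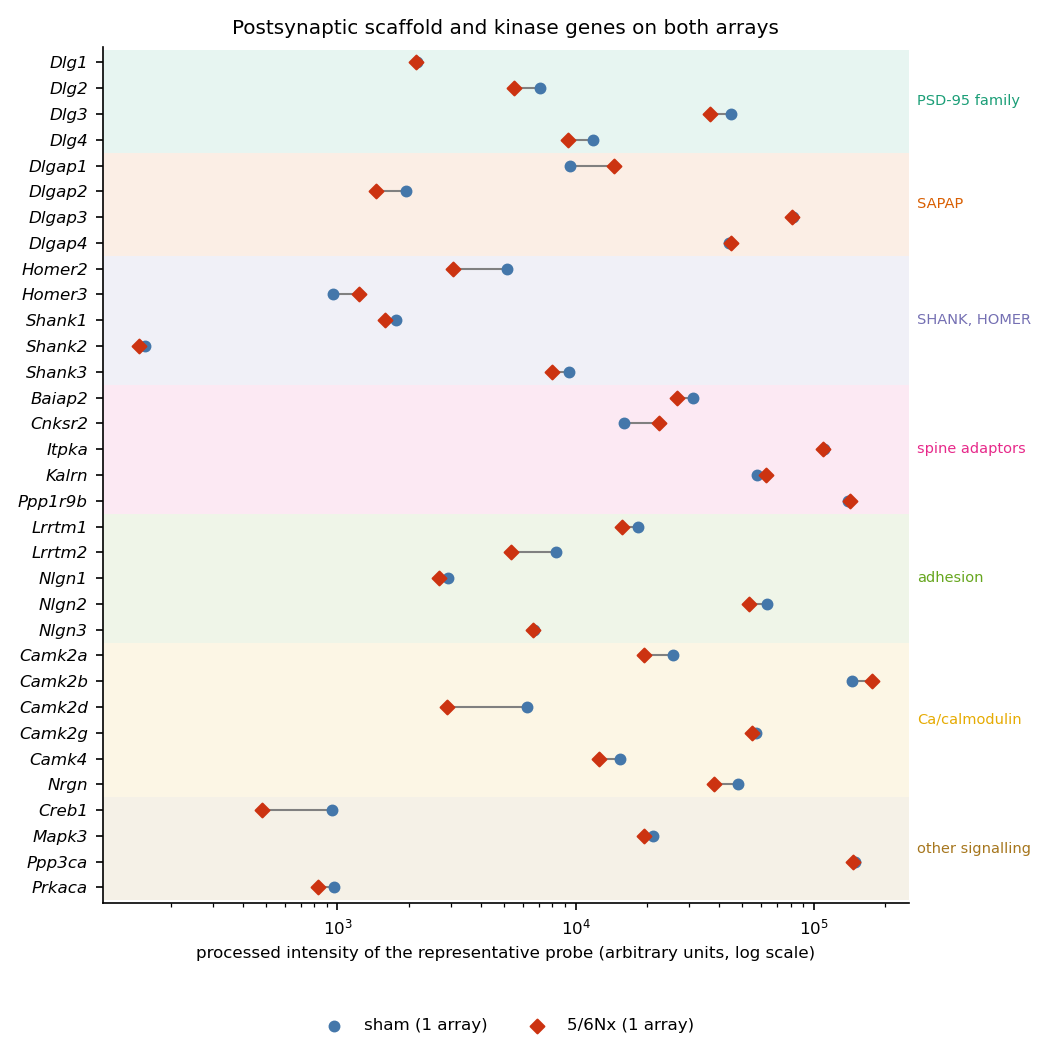
Processed intensity (log scale, scanner units) of the probe representing each of the 33 genes, grouped by role, in sham (circles) and 5/6Nx (diamonds), 1 array each and not scaled between arrays. Most pairs of points nearly coincide, and the widest gaps are those of Camk2d, Creb1 and Homer2.

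**Figure D2:**
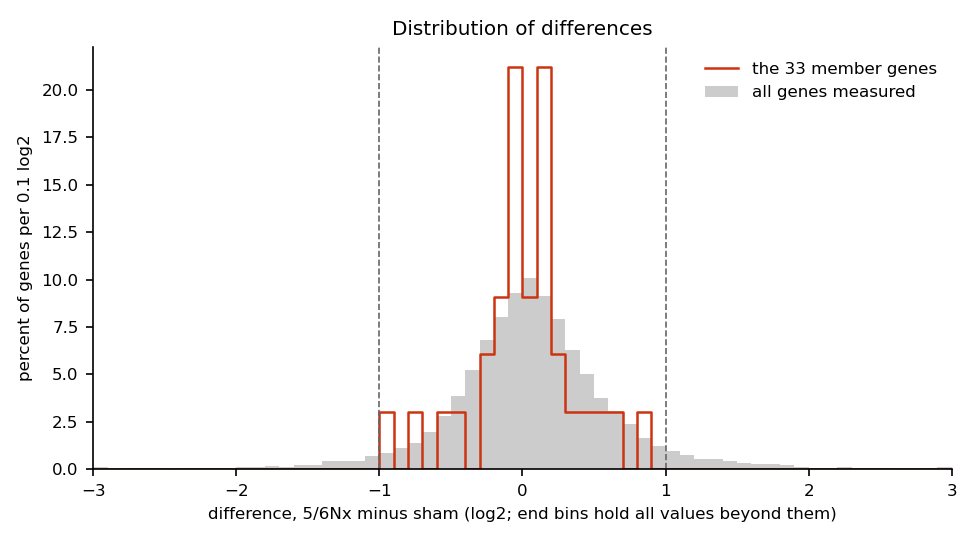
Differences (log2, 5/6Nx minus sham) of the 33 genes (line) and of all 25944 measured genes (bars), as percent of genes in bins of equal width, with dashed lines at 2-fold. No member lies beyond the dashed lines, and the lowest and highest are -0.91 and 0.81.

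The precision of single values can be read from replicate spots and from different probes of a gene. The bright probe of Shank3 was printed 10 times on each array, with a mean signal of 9344 in sham and 7953 in 5/6Nx and an SD over spots of 0.03 (log2) on both. Over the 320 measured probes with at least 5 spots the median SD was 0.05 on each array. Where a gene had several measured probes, their differences had an SD of 0.20 in the median gene of the array. Among the 22 members with several measured probes this median was 0.25. Neither spread covers the variation between animals.

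Markers of some other cell types and tissues differed between the arrays, and those of others hardly did. Choroid plexus markers had 12 of 13 measured genes at least 2-fold higher (summed signal 27837 in sham and 289918 in 5/6Nx), leptomeningeal markers 10 of 12 at least 2-fold lower (88983 and 23728), and blood cell markers 8 of 9 at least 2-fold lower (323664 and 23213). Of the neuronal lists, CA1 markers had a median of -1.07 with 5 of 9 at least 2-fold lower (Dcn among them is also on the leptomeningeal list), GABAergic interneuron markers -0.49 with 2 of 16 lower, and pan-neuronal markers -0.30 with 2 of 13 lower. Summed signals in sham and 5/6Nx were 151117 and 68102 for CA1 and 619738 and 506129 for pan-neuronal genes. Those of interneurons were 480506 and 276881, of which Cck alone gave 263177 and 142187. Unlike the medians, the sums of all lists are not scaled between the arrays. Among glia and vessels, astrocyte markers had a median of 0.03 with 1 of 11 at least 2-fold higher, and endothelial markers 0.20 with 0 of 9 at least 1.5-fold apart. Oligodendrocyte markers had -0.26 with 1 of 12 at least 2-fold higher and 2 lower, and microglial markers -0.23 with 2 of 10 at least 2-fold lower. The glutamatergic list had a median of -0.05, with 2 of 8 at least 2-fold lower and 57778 in sham against 49890 in 5/6Nx in sum. As a check of the labelled tissue, Slc17a7, the vesicular glutamate transporter of cortical and hippocampal principal cells, read 9399 and 8910, and Prox1, which marks dentate granule cells, read 503 and 540. Dentate markers had a median of 0.40 over 11 genes and CA2 and CA3 markers 0.16 over 9. No list had its measured markers at 0. Of the genes listed, Cldn2, Ngp and Iyd were well above background on only 1 of the arrays and so were not measured. Map2 and Nectin3 had no spot under those symbols. The part of these shifts in the values of the 33 genes was not tested, and in tissue RNA fewer cells of a type and less RNA per cell cannot be told apart.

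The calcium and calmodulin kinases held the largest difference of the set. Camk2a, Camk2b, Camk2d and Camk2g encode the alpha, beta, delta and gamma subunits from which the CaMKII holoenzyme is built, and alpha and beta are the main forms of forebrain neurons. For Camk2d the representing probe had a signal of 6233 in sham and 2889 in 5/6Nx, a difference of -0.91, or 1.88-fold lower in 5/6Nx. Its other measured probes read 1356 and 643 (-0.88) and 1294 and 473 (-1.25). The signal was thus lower in 5/6Nx at all 3 positions, each by more than 1.5-fold and one by more than 2-fold, and Camk2d was the only one of the 22 members with several measured probes to have every probe at least 1.5-fold apart (675 of 7985 such genes on the array, 8.45%). One more probe, of another transcript model, was at 36.2 in sham and not well above background in 5/6Nx (21.0).

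The Camk2d probes are shown because their differences lay on the same side. They read the same RNA on the same arrays, so their agreement does not replicate the comparison of the groups. They lie on the plus strand at chr3:126543223-126543282, chr3:126545798-126545857 and chr3:126547685-126547744 of mm9, the build named in the scanner files. Each was designed on a RefSeq mRNA, whose base at the probe's start names it here. The scanner files do not say whether a probe falls in coding or untranslated sequence. The first 30 of the 60 bases are printed 5′ to 3′, without capitals because no base is singled out.
Camk2d probe, base 1941: gtgatgggaagtggcagaatgttcactttc
Camk2d probe, base 2124: atgcatatgtgacacgtcatcttatcatgt
Camk2d probe, base 4011: ccagcacagtgaaattacaccttcatcatc

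Camk2b lay on the other side. Its representing probe read 144681 in sham and 176633 in 5/6Nx, a difference of 0.49, and its second probe read 7628 and 11146, a difference of 0.75. Both probes were higher in 5/6Nx, the second by more than 1.5-fold. Camk2g had 1 probe, with 57202 and 54862 and a difference of 0.14. For Camk2a the 3 measured probes did not point the same way: the bright one read 25765 and 19469 (-0.20), the next 7664 and 8443 (0.34), and a dim one, of another transcript model, 106 and 222 (1.28). The level of Camk2a therefore had no settled direction on these arrays. Only for Camk2b and Camk2d, of the CaMKII genes with several probes, did all measured probes share a sign.

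Camk4, the nuclear calmodulin kinase that phosphorylates CREB, read 15365 in sham and 12533 in 5/6Nx (-0.09) at its representing probe, with its other probes at 0.33 and 0.22. Nrgn encodes neurogranin, which holds calmodulin near the postsynaptic membrane when calcium is low, and it read 48254 and 38160 (-0.14). Neither reached 1.5-fold at any probe.

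Of the other signalling genes, Creb1 alone was more than 1.5-fold apart. Creb1, the transcription factor at the end of the pathway, read 946 in sham and 482 in 5/6Nx at its representing probe, a difference of -0.77, and its second RefSeq probe read 229 and 146 (-0.45). Its remaining probe, of another transcript model, went the other way (0.74) at low signals of 20.3 and 29.5. With all measured probes averaged, Creb1 was at -0.16. The catalytic subunit gene of protein kinase A, Prkaca, was at -0.03 (969 and 829), and the ERK kinase gene Mapk3 was at 0.08 (21083 and 19453) with a second probe at 0.05. Ppp3ca, the catalytic subunit of calcineurin, the calcium-activated phosphatase that opposes the kinases, read 149537 and 146271 (0.17). These 3 genes differed by less than the median SD between probes of 1 gene.

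The DLG scaffolds differed little. Dlg4 encodes PSD-95, the main scaffold of mature excitatory synapses, and its probe read 11874 in sham and 9274 in 5/6Nx, a difference of -0.16. Dlg3 read 44831 and 36561 (-0.09) and Dlg2 7079 and 5500 (-0.16), with a second Dlg2 probe at -0.28. Dlg1 was at 0.19 by its representing probe (2163 and 2141), but its RefSeq probes were at -0.33 and -0.30, and with normexp background correction the gene was at -0.35. Of the 7 probes of this family 6 lay below 0 and none reached 1.5-fold.

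The SAPAP adaptors, which join DLG scaffolds to SHANK, held the highest difference of the set. Dlgap1 read 9508 in sham and 14533 in 5/6Nx, a difference of 0.81, and a second probe on the same RefSeq mRNA read 1746 and 2056 (0.44). Its remaining probe, designed on a different RefSeq mRNA of the gene, read 1445 and 1085 (-0.21). The probes of Dlgap1 thus spanned 1.03 log2 units, and with all of them averaged the gene was at 0.35. Dlgap3 was at 0.19 (81552 and 81173) and Dlgap4 at 0.22 (44154 and 44762), both within 1.5-fold and at -0.02 and 0.0028 with spike-in scaling. Dlgap2 read 1935 and 1446 (-0.22) at its representing probe, and 244 and 417 (0.97) at a probe of another transcript model.

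SHANK and HOMER form the deeper layer of the density. Shank3 was at -0.03 by the probe with 10 spots, and its second probe was at -0.04 (196 and 166), the closest pair of probes in the set. Shank1 read 1761 in sham and 1588 in 5/6Nx (0.05), although its 4 probes ran from -0.60 to 0.78. Shank2 read 155 and 147 (0.13) at its RefSeq probe and 67.5 and 180 (1.62) at a probe of another transcript model, the largest difference of any probe in the set. The HOMER adaptors, which tie SHANK to metabotropic glutamate receptors and calcium stores, lay on opposite sides: Homer2 read 5175 and 3045 (-0.56) with a second probe at -0.29, and Homer3 read 955 and 1226 (0.56) with a second probe at 0.83. Both probes of Homer2 were lower and both of Homer3 higher in 5/6Nx. By the representing probe each stood just under 1.5-fold.

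Among the spine adaptors, Cnksr2 and Kalrn were the ones whose probes disagreed. Cnksr2 encodes a scaffold protein of the density. Its representing probe, of another transcript model, lies at chrX:154270849-154270908 (mm9, minus strand) and read 15946 in sham and 22445 in 5/6Nx (0.69). Its RefSeq probe at chrX:154259530-154259589 read 21641 and 14985 (-0.33). Both probes were bright, so the gene was higher by one and lower by the other without either being near background, and at 0.18 with both averaged. Itpka, a kinase of inositol trisphosphate that also bundles actin in spines, read 110640 and 109902 (0.19), and Ppp1r9b, which encodes spinophilin, the protein that targets protein phosphatase 1 to spines, read 139353 and 141618 (0.22). Baiap2, an actin regulator also called IRSp53, was at -0.02 (31026 and 26615) with a second probe at -0.08. None of these last 3 reached 1.5-fold at any probe.

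Kalrn encodes kalirin, which promotes spine growth and is made in several isoforms, and it had 8 measured probes. The representing probe read 58066 in sham and 62934 in 5/6Nx, a difference of 0.32. In the direction of transcription, the first 3 probes were at 0.59, 0.61 and 0.32, the next 3, which begin between 128.5 and 165.1 kb from the first, at 0.24, 0.23 and 0.92, and the last 2, at 202.8 and 205.3 kb, at -0.50 and -0.15. The last 2 probes, at the 3′ end of the gene, were thus the only ones lower in 5/6Nx. The one at 205.3 kb was dim, with 121 in sham and 95.4 in 5/6Nx. Its difference of -0.15 was smaller than the median SD of 0.20 between probes of a gene. The probe at 0.24 was dim as well (61.8 and 63.6). The highest probe read 3511 and 5789, at chr16:34013304-34013363, and the lowest read 9148 and 5622, at chr16:33975602-33975661 (mm9, minus strand).

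The probes below carry the disagreements within Dlgap1, Cnksr2, Kalrn and Shank2, and each gene has its higher probe first. Again the first 30 of 60 bases are given, with the base of the transcript model on which the probe starts. The models of a pair differ, so these bases do not share a scale. The Dlgap1 pair lies at chr17:71168189-71168248 and chr17:71165374-71165433 and the Shank2 pair at chr7:151610225-151610284 and chr7:151606981-151607040, both on the plus strand of mm9.
Dlgap1 probe, base 3758: ctcactggtacttcatcaaccaagcttcaa
Dlgap1 probe, base 3591: acactgttccctgggatcctcatgcaacag
Cnksr2 probe, base 4237: gaaatgtttttcttcctgttgctgcagtgt
Cnksr2 probe, base 5332: ctctgttactagtatgcagcttctactttt
Kalrn probe, base 2558: atttaaagaaacccttgtggatgaagtcag
Kalrn probe, base 8936: gtcaagagttacatcgtcaatagggtgaac
Shank2 probe, base 7994: ttctttttagactttatttatttagaagga
Shank2 probe, base 4759: actcgagttgggcataggatgaacatagaa

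The adhesion genes build the bridge across the synaptic cleft. Neuroligins and LRRTM proteins bind presynaptic neurexins, Nlgn1 being known from excitatory synapses and Nlgn2 from inhibitory ones. Lrrtm2 was the member of this group farthest from 0, with 8248 in sham and 5348 in 5/6Nx (-0.42) and a second probe at 578 and 404 (-0.32), so both were lower in 5/6Nx and neither by 1.5-fold. Lrrtm1 was at -0.02 (18337 and 15730) and Nlgn2 at -0.05 (63587 and 53284). Nlgn1 was at 0.08 (2907 and 2680), with a probe of another transcript model at 0.80. Nlgn3 was at 0.19 (6682 and 6646) by a probe of another model, and at -0.18 and -0.45 by its RefSeq probes.

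**Figure D3:**
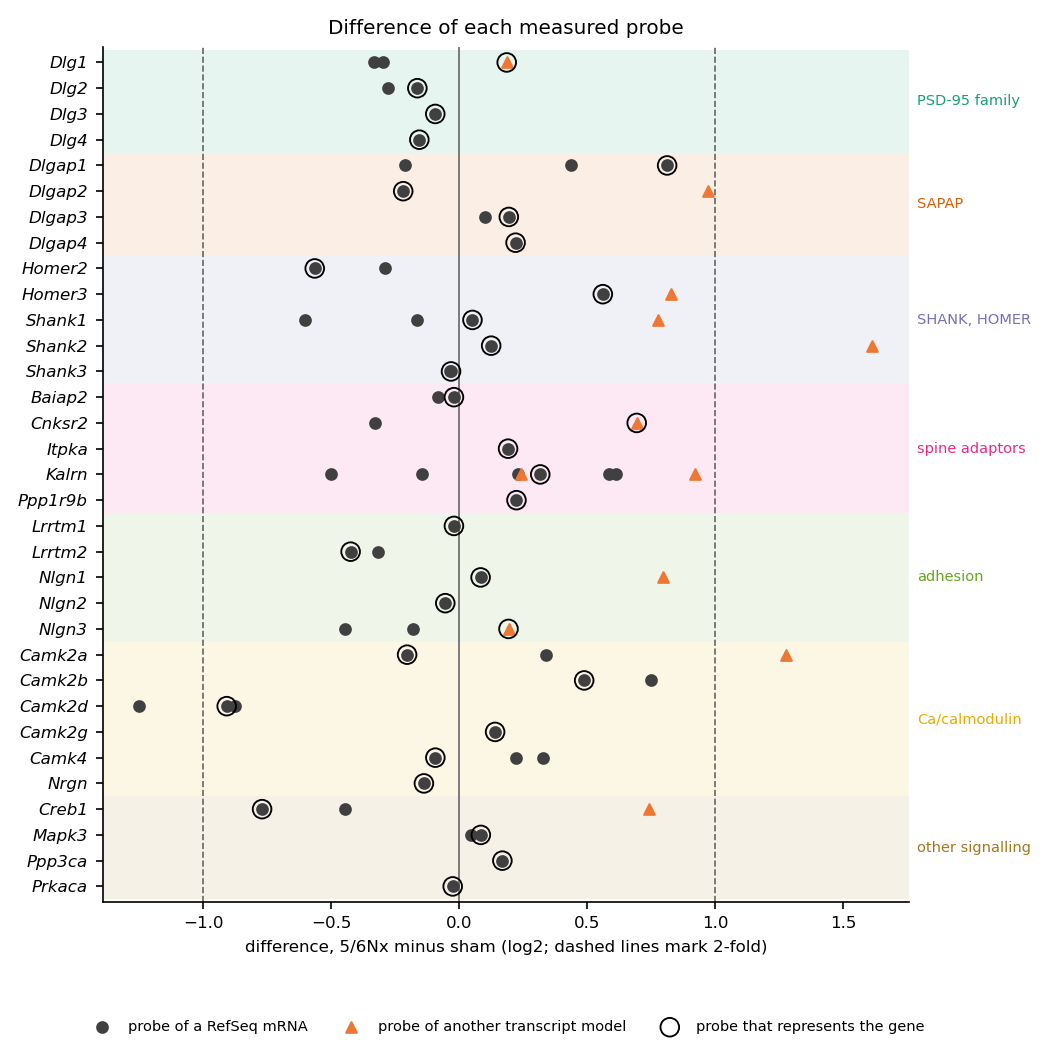
Difference (log2, 5/6Nx minus sham) of each of the 70 measured probes, by gene and role. Circles are probes of RefSeq mRNAs, triangles probes of other transcript models, rings mark the probe that represents the gene, and dashed lines mark 2-fold. The triangles, which leave out the Camk2d probe of another model that was below background in 5/6Nx, all lie right of 0, and the probes of Camk2d all lie left of -0.87.

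Counted by probe, 3 of the 70 measured probes were at least 2-fold apart, against 8.41% of all measured probes. They belonged to 3 genes, and over the array 10.8% of genes had any measured probe at least 2-fold apart. That share depends on the number of probes of a gene, and members have more probes than most genes. The 3 were the Shank2 and Camk2a probes of other transcript models, which were higher, and 1 Camk2d probe, which was lower. At 1.5-fold, 18 of the 70 were apart (13 higher and 5 lower), against 23.9% of all measured probes.

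One regularity ran through the probes that the choice of genes did not use, and it was noticed after the values were seen. Of the 70 measured probes, 58 were designed on RefSeq mRNAs and 12 on other transcript models of the gene, named in the scanner files by Ensembl or GenBank identifiers. These 12 probes of other models were higher in 5/6Nx (10 of 12 with spike-in scaling), from 0.19 to 1.62 with a median of 0.79, whereas 24 of the 58 RefSeq probes (41.4%) were above 0, with a median of -0.05. The 12 leave out the Camk2d probe of another model that was lower in 5/6Nx (-0.58), because its signal there was not well above background, so the filter itself removed the probe that went the other way. Over all measured probes of the array 66.8% of those of other models and 49.4% of those of RefSeq mRNAs were above 0. In each of the 11 genes with both kinds of measured probe (Camk2a, Cnksr2, Creb1, Dlg1, Dlgap2, Homer3, Kalrn, Nlgn1, Nlgn3, Shank1 and Shank2) the other models were higher than the RefSeq probes, by a median of 1.01. Over the whole array the same contrast was smaller: other models were higher in 60.8% of 1352 such genes, by a median of 0.12. No test of the difference between these shares was made, and the 12 probes share 2 arrays.

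Signal differed with the kind of probe. Of the 12, 8 were at or below the median signal of all measured probes, against 7 of the 58 RefSeq probes. The 7 dim RefSeq probes had a median of -0.28 and the 8 dim probes of other models one of 0.81. The 51 bright RefSeq probes had a median of -0.03 and the 4 bright probes of other models one of 0.44. Over the array the medians of dim probes were 0.07 for RefSeq mRNAs and 0.24 for other models, and those of bright probes -0.04 and 0.06. The part of dimness in the values of these probes was not tested. Homer3 was the exception under other background corrections: with normexp and with no background subtraction 10 of the 11 genes had other models higher, with medians of 0.81 and 0.80.

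**Figure D4:**
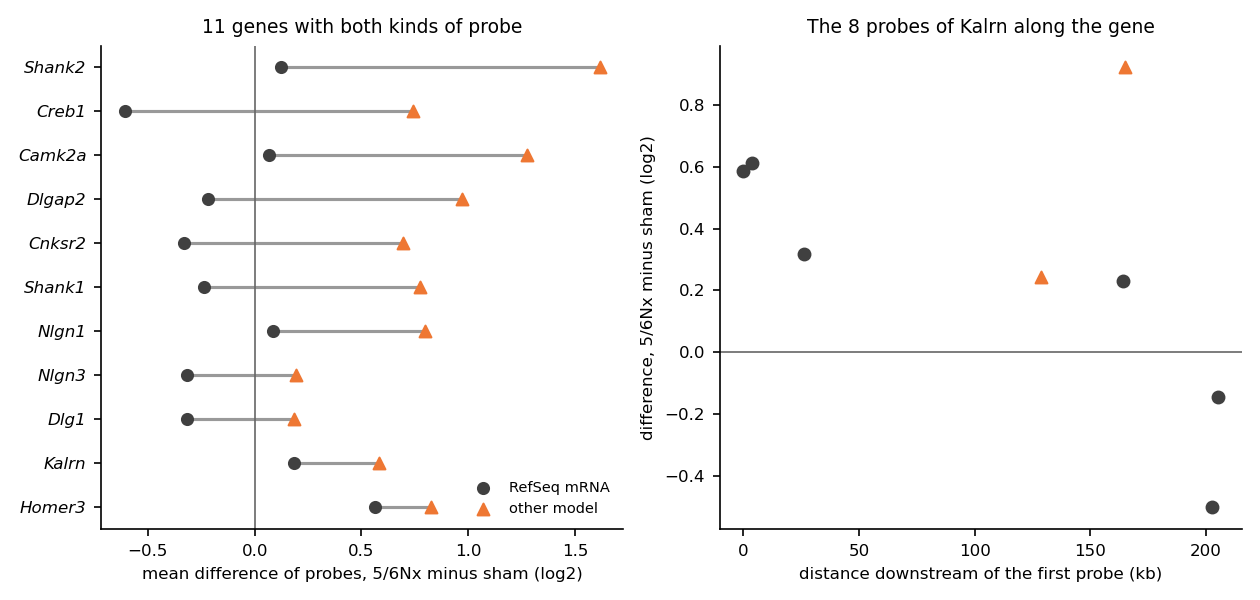
Left, mean difference (log2, 5/6Nx minus sham) of RefSeq probes (circles) and of probes of other transcript models (triangles) in the 11 genes that have both; the triangle is right of the circle in all 11. Right, difference of the 8 measured Kalrn probes against their distance in kb downstream of the first, with the last 2 below 0.

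The wider pathway was read from 6 lists, with 121 measured genes in all. None of the 121 was at least 2-fold higher and 4 were at least 2-fold lower, against 4.91% higher and 3.28% lower of all measured genes, and the median was -0.0046. The 4 were Gap43 (49841 in sham and 16710 in 5/6Nx, -1.38), a calmodulin binder of growing axons, Camk1 (1090 and 408, -1.22), a kinase activated by calmodulin, Lin7b (15868 and 5990, -1.20), an adaptor of the postsynaptic density, and Cdk5 (23351 and 10053, -1.02), a neuronal kinase. Each of these had 1 measured probe. The 4 are 3.31% of the 121, a share near that of all measured genes.

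Other scaffolds and actin-linked proteins had a median of 0.07 over 25 genes, with the scaffold gene Magi1 at 0.98 (its other probe at 0.09) as the next after Lin7b. Other adhesion proteins had a median of -0.01 over 29, with Lrrtm3, a relative of Lrrtm2, at -0.98 (its other probe at -0.08) and Cadm1 at -0.85. Other kinases and their regulators had a median of 0.01 over 30. Phosphatase subunits and regulators had -0.08 over 16, with none 1.5-fold apart and Ppp2r2b (-0.42) and Ptpn5 (-0.39) farthest from 0, although another Ptpn5 probe was at 1.21. Partners and coactivators of CREB had 0.12 over 8, again with none 1.5-fold apart, led by Crtc2 (0.53) and Crebbp (0.45). Calmodulin, its binders and calcium sensors had -0.15 over 13, with Vsnl1 at -0.68 after Gap43.

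Glutamate receptor subunits and presynaptic genes were set beside the 33. The AMPA and NMDA receptor subunits, held in place by these scaffolds, had a median of 0.09 over 11 genes, 1 of them at least 2-fold higher (Gria2 at 1.27, whose other probe was at -0.80), with Grin3a at -0.88. The presynaptic release machinery had a median of 0.01 over 38 genes, with 3 at least 2-fold lower: Cplx3 (-1.35), Syt7 (-1.25, its other probe at 0.15) and Rab3b (-1.25). In the median absolute difference the 33 genes stood at 0.19, the presynaptic list at 0.19 and the receptor subunits at 0.50, against 0.29 for all measured genes and 0.24 for those above the median signal. No test of these differences is possible with 1 array a group.

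**Figure D5:**
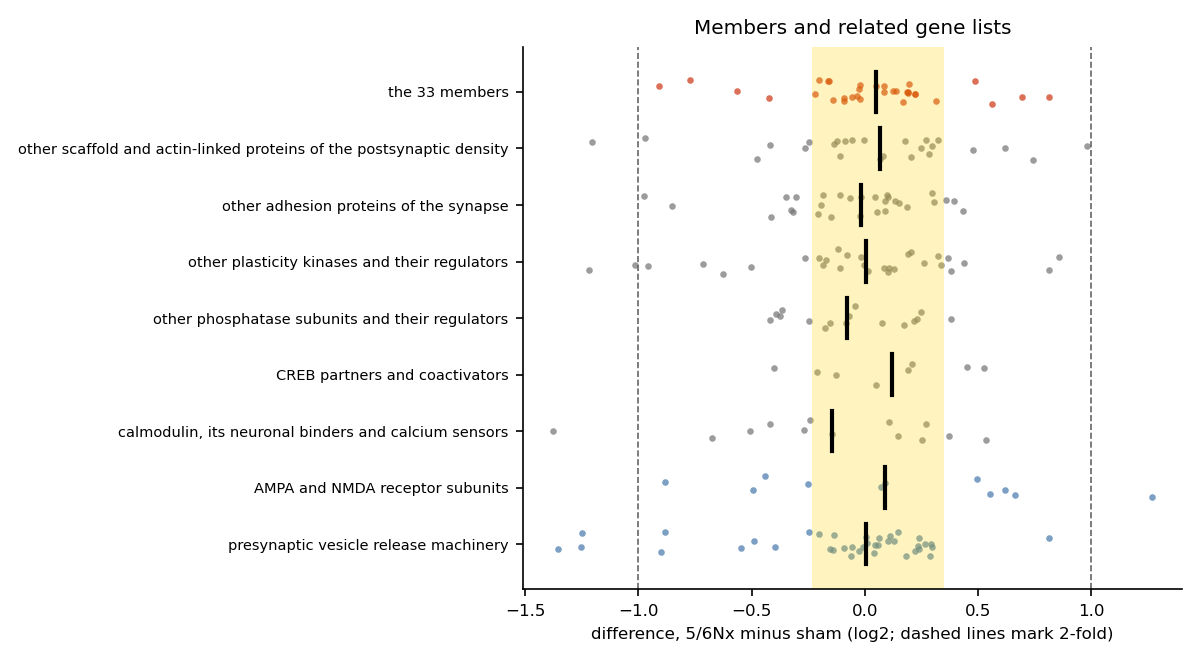
Difference (log2, 5/6Nx minus sham) of each measured gene in the set of 33, in the 6 related lists and in the 2 neighbouring groups. Points are genes, spread vertically for legibility, black bars are medians, the shaded band holds the middle 50% of all measured genes and dashed lines mark 2-fold; all medians lie inside the band.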

How the data were processed

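The deposited scanner output holds linear intensity values per spot, which the authors extracted with Agilent Feature Extraction 10.7.1.1 per the file headers (9.5.1.1 per the submitters' processing notes), background-subtracted and detrended within each array. The series' own deposited table gives linear intensity values with a median of 124 in both columns, by a normalization that no header or label names, and served as an alternative. The set and all lists were chosen with earlier results of these data known. Control spots and spots flagged as outliers (105 in sham, 97 in 5/6Nx) were left out, log2 signals were scaled to the array's 75th percentile, and spots of a probe were averaged (Python 3.11.15, pandas, R limma 3.58.1 for normexp with an offset of 50). Of 59305 spots, 72.7% in sham and 72.5% in 5/6Nx were well above background and 0 were saturated. A gene is a gene name of the scanner files, represented by its probe of highest mean signal among those well above background on at least 1 array. The 12 genes of largest difference, the brightest probe of each role and genes with discordant probes were to be named with signals, as were the genes of each list with the largest difference or at least 2-fold apart. One further pathway list is not reported here. The calculation was tested on simulated data. The number of arrays, 1 a group, limits the precision.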

Additional observations from a re-analysis of the deposited data

How the results depend on the processing

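No replicate could be left out, and no paired analysis was possible because there is 1 array a group. The 12 processing alternatives were quantile, median, lowess and spike-in scaling, normexp, no background subtraction, the authors' table, no filter, genes above the median signal, the mean over probes, outlier spots kept, and a threshold of 3-fold. Of 361 values of single genes, 316 moved by less than 0.20 and 45 by more, and no gene at least 1.5-fold apart changed sign. Some genes with smaller differences did, most often Shank2 (5 of 10 alternatives) and Dlg1 (4 of 11). The count of genes at least 2-fold apart was 0 except for 1, Camk2d, with median scaling, with spike-in scaling and with the mean over probes. Camk2d itself ran from -1.13 to -0.87. The median of the 33 was -0.17 with spike-in scaling, and the median of all genes was -0.16 there and -0.11 with median scaling. At 1.5-fold, both of these scalings gave 1 gene higher and 4 lower in place of 2 and 2, normexp and no background subtraction gave 2 and 3 with Homer2 added, and the filter above the median signal, which leaves out Creb1, gave 2 and 1. With the mean over probes the 4 genes at least 1.5-fold apart were Camk2b, Camk2d, Shank2 and Homer3. Of all 2-fold differences 59.9% were higher, against 49.3% after quantile normalization, 41.5% after median scaling, 48.0% after lowess, 49.5% in the authors' table and 36.2% after spike-in scaling. The median of other transcript models minus RefSeq probes within genes was 0.81 with normexp and 0.80 with no background subtraction. That contrast, unlike the alternatives, was chosen after seeing the data. The causes were not tested. With spike-in scaling 10 of the 12 probes of other models were above 0.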

Other observations

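The spread between probes of a gene was compared between the set and the array, without a test. A span of more than 1 log2 unit was found in 8 of the 22 members with several measured probes (36.4%) and in 11.9% of 7985 genes. Members have more probes than most genes, and among genes with exactly 2 measured probes the figures were 3 of 13 (23.1%) and 8.48% of 5238. The sign differed between probes in 10 of the 22 members (45.5%) and in 35.2% of the 7985 genes. With exactly 2 measured probes the order was reversed, with 2 of those 13 members (15.4%) and 28.8% of those 5238 genes.

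On the array the contrast between transcript models differed with position along the gene, and the set has too few genes with the other model downstream to show this. In 8 of the 11 members with both kinds of probe the other model lay upstream of all RefSeq probes, and in these the median of other models minus RefSeq probes was 1.02. In Shank2 and Nlgn3, where it lay downstream, the values were 1.49 and 0.51. Over the array the median was 0.27 in 711 genes with the other model upstream and -0.02 in 470 genes with it downstream. Between the most upstream and the most downstream measured probe of 1 RefSeq mRNA, the upstream probe was higher in 9 of 17 mRNAs of the set and in 56.4% of 3975 on the array, with medians of 0.03 and 0.05. The part of position in the array's values was not tested.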
